A study of Mus musculus with 16 samples.

Results

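Cholesterol and fatty acids are made from cytosolic acetyl-CoA along separate branches, and 30 mouse genes of those branches were followed here, 20 of the sterol branch and 10 of the fatty acid branch. They were chosen by symbol, as enzymes and regulators of lipid synthesis, and each was read by its brightest detected probe. A probe of its own symbol was found for 27 of them in the probe annotation used, and 25 passed the detection filter and were tested among 10724 genes, 17 in the sterol branch and 8 in the fatty acid branch. Hmgcs1, Fdft1 and Acat2, all listed under the sterol branch, had no probe under those symbols and are not analysed here. The single probes of Acaca, which encodes acetyl-CoA carboxylase, and of Me1, which encodes cytosolic malic enzyme, were not well above background on any of the 16 arrays.

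The cells were 4 mouse mammary tumour lines that carry a HER2 transgene, each read on 4 Illumina BeadChip arrays. MI6 and MI7 are positive for d16HER2, a HER2 receptor whose transcript skips exon 16. The lines positive for the full-length (WT) receptor are WTHER2-1 and WTHER2-2. The labels give no treatment, no age and no promoter for the transgenes, and each transgene is modelled by only 2 lines. Whether a line's arrays came from separate cultures is not stated, so p-values that rest on the spread between arrays measure only that spread, which may be technical. No BeadChip held both transgenes, so BeadChip and transgene cannot be told apart. The WT HER2 lines shared no BeadChip with each other, so BeadChip and line cannot be told apart for them either. MI6 and MI7 shared their BeadChips.

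Sterol synthesis runs from acetyl-CoA through mevalonate and squalene to lanosterol and then cholesterol. SREBP transcription factors, the products of Srebf1 and Srebf2, are held in the endoplasmic reticulum by INSIG proteins when sterols are plentiful and are released to the nucleus when sterols are low, where SREBP-2 mainly drives sterol genes and SREBP-1c mainly fatty acid genes. NF-Y, which binds the CCAAT box, is a known partner of SREBPs on these promoters. Growth factor signalling through AKT and mTOR is known to raise SREBP activity, and lipid synthesis is a known feature of HER2-positive breast tumours.

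Promoters of 5 sterol genes are shown because many sterol genes moved together from array to array, as described further on. Among sterol genes with a listed promoter and 1 listed start, 4 were taken as most closely tied to the others over all 16 arrays. Insig1 was added by choice. Fdps and Sqle were tied as closely but had no listed promoter. Each line gives the 250 bases before the listed start on the strand of the gene, from RefSeq on GRCm38.p6. Capitals mark CCAAT or its reverse complement ATTGG. Srebf2 lies on the plus strand at chr15:82147019-82147268, Mvd on the minus strand at chr8:122443423-122443672, and Nsdhl on the plus strand at chrX:72918271-72918520. Cyp51 lies on the minus strand at chr5:4104698-4104947 and Insig1 on the plus strand at chr5:28071162-28071411.
Srebf2: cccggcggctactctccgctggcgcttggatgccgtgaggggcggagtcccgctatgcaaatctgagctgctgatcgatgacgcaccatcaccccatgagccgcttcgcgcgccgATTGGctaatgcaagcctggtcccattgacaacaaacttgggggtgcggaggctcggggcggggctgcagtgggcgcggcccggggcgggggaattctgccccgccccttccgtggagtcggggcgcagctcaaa
Mvd: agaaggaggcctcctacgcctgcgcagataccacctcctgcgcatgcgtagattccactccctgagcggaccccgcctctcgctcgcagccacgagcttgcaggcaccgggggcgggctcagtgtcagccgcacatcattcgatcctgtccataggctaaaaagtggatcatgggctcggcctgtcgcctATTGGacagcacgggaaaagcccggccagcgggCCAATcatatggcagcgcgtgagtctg
Nsdhl: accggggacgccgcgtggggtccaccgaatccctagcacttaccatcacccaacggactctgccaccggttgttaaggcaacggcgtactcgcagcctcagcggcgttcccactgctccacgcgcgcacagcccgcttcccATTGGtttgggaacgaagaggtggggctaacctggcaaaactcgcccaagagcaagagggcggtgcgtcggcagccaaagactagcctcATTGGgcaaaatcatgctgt
Cyp51: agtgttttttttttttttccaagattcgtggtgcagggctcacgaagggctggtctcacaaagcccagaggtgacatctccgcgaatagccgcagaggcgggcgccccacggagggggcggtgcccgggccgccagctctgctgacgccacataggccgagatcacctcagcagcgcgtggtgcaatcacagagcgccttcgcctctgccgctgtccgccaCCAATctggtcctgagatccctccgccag
Insig1: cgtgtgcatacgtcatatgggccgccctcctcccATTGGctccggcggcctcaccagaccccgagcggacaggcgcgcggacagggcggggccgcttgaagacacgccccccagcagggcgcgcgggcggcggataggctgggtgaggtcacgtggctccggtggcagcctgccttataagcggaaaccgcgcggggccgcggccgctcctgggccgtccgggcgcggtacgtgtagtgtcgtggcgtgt
Mvd and Nsdhl have 2 such boxes each and the other promoters 1 each.

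Of the 30 genes, 23 had a promoter in the RefSeq table. CCAAT or ATTGG was found in 15 of 16 sterol promoters and in 3 of 7 fatty acid promoters, and in 37.5% of the promoters of 27025 genes. Acat2, a thiolase gene, was the sterol promoter with none, and Fasn, Acss2 and Me1 were the fatty acid promoters with one. The E-box letters CACGTG, which read the same on both strands, were found in the promoters of Dhcr7, Hsd17b7 and Insig1, in 0 of the 7 fatty acid promoters and in 6.86% of all promoters. An SREBP site searched as TCACNCCAC or GTGGNGTGA was found in 1 promoter of the 23, that of Hmgcs1, and in 1.22% of all. Each motif was searched on both strands, and no motif contains another. A match of letters is not a measured site, and a promoter without the exact letters may still hold a site.

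No gene of either branch was separated by transgene under the rule that follows. Few of all genes were separated, so this count lies near that share. With 2 lines against 2 it does not show equal levels. Separation required that both d16HER2 lines differ from both WT HER2 lines, over all 4 pairs, in the same direction, each by at least 1 on the log2 scale and with a limma adjusted p under 0.05 (Benjamini-Hochberg over all genes). Of the sterol genes 0 of 17 were separated, and of the fatty acid genes 0 of 8, against 5.52% of all genes tested (3.06% higher and 2.46% lower in d16HER2). Taking the line as the replicate, limma on the 4 line means also passed 0 of 17 and 0 of 8, against 0.494% of all genes. At an unadjusted p under 0.05 it passed 3 sterol genes, of which Mvk was mostly at background in d16HER2, and 1 fatty acid gene, against 19.6% of all genes. The 8 d16HER2 arrays overlapped the 8 WT HER2 arrays for every one of the 25 genes, whereas 11.6% of all genes had no overlap.

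The sterol genes had a median difference, d16HER2 minus WT HER2, of 0.11 on the log2 scale, with 9 of 17 higher in d16HER2. For the fatty acid genes the median difference was 0.22, with 5 of 8 higher in d16HER2. Over all genes tested the median difference was 0.03. The median size of the difference without its sign was 0.318 for the sterol genes, 0.380 for the fatty acid genes and 0.349 for all genes. Within a line, the median SD between arrays for a gene was 0.348, 0.318 and 0.304 in the same order. The sign of both medians rested on single lines, since the sterol median was -0.19 without WTHER2-1 and the fatty acid median -0.25 without WTHER2-2 and -0.040 without MI6.

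**Figure D1:**
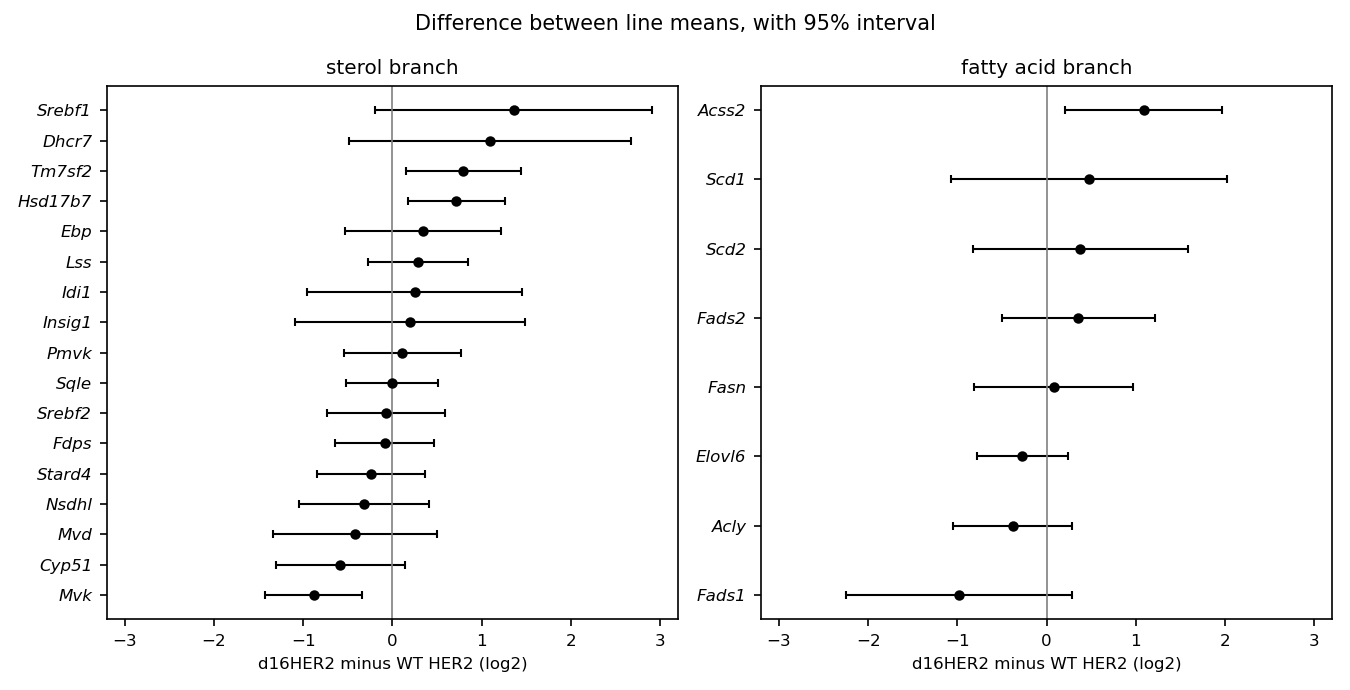
Difference between the d16HER2 and WT HER2 line means (log2, x axis) for the 17 sterol genes and the 8 fatty acid genes, with bars for the 95% interval of limma's line-level fit on 2 lines against 2. Differences ran from -0.88 for Mvk, which was mostly at background in d16HER2, to 1.36 for Srebf1 in the sterol branch and from -0.98 for Fads1 to 1.09 for Acss2 in the fatty acid branch, and none passed the adjusted test.

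Srebf1 encodes SREBP-1 and had the largest line-level difference of the sterol list. Its log2 intensity was 10.04, 10.81, 10.66 and 9.53 on the MI6 arrays and 10.93, 10.63, 10.56 and 9.70 on the MI7 arrays, against 9.89, 9.27, 9.81 and 10.04 on the WTHER2-1 arrays and 8.63, 8.09, 8.16 and 8.10 on the WTHER2-2 arrays. WTHER2-2 was low on every array, while the WTHER2-1 arrays overlapped those of both d16HER2 lines. The line-level difference was 1.36 ± 0.57 (SE, 2 lines against 2), with a limma adjusted p of 0.305. In the fit of the 4 lines Srebf1 was higher than in WTHER2-2 by 2.01 ± 0.30 (SE) in MI6, 2.21 ± 0.30 in MI7 and 1.51 ± 0.30 in WTHER2-1. Those are folds of 4.04, 4.62 and 2.84, with limma adjusted p of 9.01e-05, 3.95e-05 and 0.00132.

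Srebf2 encodes SREBP-2, the main activator of sterol genes, and had similar means in the 4 lines. It read 10.64, 10.16, 10.14 and 10.35 on the MI6 arrays, 10.86, 10.30, 10.30 and 10.70 on the MI7 arrays, 10.17, 10.40, 10.38 and 10.20 on the WTHER2-1 arrays, and 10.66, 10.56, 10.62 and 11.01 on the WTHER2-2 arrays. All lines overlapped except WTHER2-1 and WTHER2-2, whose means lay 0.43 apart. The line-level difference was -0.07, with a 95% interval from -0.73 to 0.59.

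Insig1 encodes the protein that retains SREBPs in the endoplasmic reticulum and is itself an SREBP target. Its log2 intensity was 11.99, 11.17, 11.19 and 11.86 on the MI6 arrays and 12.11, 11.48, 11.52 and 11.84 on the MI7 arrays, against 10.99, 11.01, 10.38 and 10.88 on the WTHER2-1 arrays and 11.91, 11.75, 12.28 and 12.34 on the WTHER2-2 arrays. WTHER2-1 lay below every other array, and the d16HER2 lines overlapped WTHER2-2. Insig1 was 2.38-fold lower in WTHER2-1 than in WTHER2-2, a difference of -1.25 ± 0.22 (limma adjusted p = 0.000572). The 2 other detected Insig1 probes gave -0.94 and -0.88 for the same pair. Srebf1 and Insig1 thus differed between the WT HER2 lines in opposite directions.

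Mvk, Pmvk, Mvd, Idi1 and Fdps encode enzymes that turn mevalonate into farnesyl diphosphate. Mvk, mevalonate kinase, was detected on 2 of 8 d16HER2 arrays and 8 of 8 WT HER2 arrays, so it passed the filter through the lines in which it was brighter. MI6 averaged 5.40 ± 0.26 and MI7 averaged 5.61 ± 0.16, against 6.37 ± 0.47 for WTHER2-1 and 6.41 ± 0.62 for WTHER2-2 (SD, 4 arrays each). A WTHER2-1 array at 5.67 and a WTHER2-2 array at 5.84 lay among the d16HER2 arrays. Since most d16HER2 values were at background, its differences have no exact size and are not read as a test. It was among the calls for MI6 minus WTHER2-2, and that call was lost without background correction, under median scaling, without the WTHER2-2 arrays on BeadChip 4 and without MI6 replicate 2 or 3 or WTHER2-2 replicate 3 or 4, each left out alone.

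Idi1, isopentenyl diphosphate isomerase, ran from 6.93 to 7.54 in WTHER2-1 and from 8.17 to 8.28 in WTHER2-2, with both d16HER2 lines between 7.68 and 8.29. The difference of WTHER2-1 minus WTHER2-2 was -1.04 ± 0.18 (limma adjusted p = 0.000522), which without background correction was -0.74 and so under the fold threshold. It was also under it without WTHER2-1 replicate 1, at -0.99, without WTHER2-1 replicate 4, at -0.95, and under median scaling, at -0.75. Pmvk, phosphomevalonate kinase, differed by 0.11 ± 0.24 between the transgenes, Mvd, mevalonate diphosphate decarboxylase, by -0.42 ± 0.33, and Fdps, farnesyl diphosphate synthase, by -0.09 ± 0.20. A dimmer second Fdps probe gave 0.93, so the probes of this gene differed.

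Sqle encodes squalene epoxidase, a rate-limiting step after the mevalonate stage. It read 13.05, 12.81, 12.69 and 13.55 on the MI6 arrays, 13.58, 12.78, 13.07 and 13.33 on the MI7 arrays, 12.72, 12.79, 13.37 and 12.83 on the WTHER2-1 arrays, and 13.46, 13.16, 12.96 and 13.62 on the WTHER2-2 arrays. All 4 lines overlapped. The line-level difference was -0.01 ± 0.19, with a 95% interval from -0.52 to 0.51.

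Dhcr7 encodes the reductase that ends one route to cholesterol. Its log2 intensity was 10.87, 10.60, 10.56 and 10.63 on the MI6 arrays and 11.62, 10.47, 10.60 and 10.81 on the MI7 arrays, against 10.56, 10.61, 10.16 and 10.47 on the WTHER2-1 arrays and 9.20, 8.90, 8.35 and 9.17 on the WTHER2-2 arrays. As with Srebf1, WTHER2-2 alone was low and the other 3 lines overlapped. Dhcr7 was higher than in WTHER2-2 by 1.76 ± 0.24 in MI6, 1.97 ± 0.24 in MI7 and 1.54 ± 0.24 in WTHER2-1. The limma adjusted p were 3.51e-05, 1.30e-05 and 0.000164, while the line-level difference of 1.09 ± 0.57 had an adjusted p of 0.389.

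The other enzymes from squalene to cholesterol differed less. Tm7sf2, a sterol reductase, ran from 7.42 to 7.73 on the d16HER2 arrays and from 6.46 to 7.48 on the WT HER2 arrays, with a line-level difference of 0.80 ± 0.23 and a limma adjusted p of 0.197. Hsd17b7, which acts in removing methyl groups from the sterol ring, had a difference of 0.72 ± 0.20 and a limma adjusted p of 0.179. Both were higher in each d16HER2 line than in each WT HER2 line by their means, as were Lss, Dhcr7 and Srebf1. That order held for 5 of 17 sterol genes, against 28.2% of all genes, and the opposite order for 3 of 17 (Mvk, Cyp51 and Stard4), against 25.5%.

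Cyp51, lanosterol demethylase, had a line-level difference of -0.58 ± 0.26 and fell by 1.01 in MI6 relative to WTHER2-2 (limma adjusted p = 0.0120), but that call was lost under several alternatives. The adjusted p was 0.0594 with BeadChip as a random block, the difference was -0.80 without the WTHER2-2 arrays on BeadChip 3 (adjusted p = 0.0764), and it was -0.97 without background correction and -0.76 under median scaling. It was also under the fold threshold without MI6 replicate 2, at -0.86, MI6 replicate 3, at -0.80, WTHER2-2 replicate 1, at -0.92, and WTHER2-2 replicate 2, at -0.96. Lss, lanosterol synthase, differed by 0.29 ± 0.20 between the transgenes, Nsdhl, which acts beside Hsd17b7, by -0.32 ± 0.26, and Ebp, a sterol isomerase, by 0.34 ± 0.32. Stard4, a cytosolic sterol carrier, differed by -0.24 ± 0.22. Lss, Nsdhl, Ebp and Stard4 were called in none of the 6 line pairs.

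In the fatty acid branch, Acly and Acss2 encode the enzymes that make cytosolic acetyl-CoA from citrate and from acetate. Acss2 read 12.37, 11.63, 11.48 and 13.05 on the MI6 arrays and 11.86, 11.21, 11.10 and 12.67 on the MI7 arrays, against 11.54, 11.75, 9.75 and 11.66 on the WTHER2-1 arrays and 10.21, 10.48, 10.04 and 11.23 on the WTHER2-2 arrays. Both d16HER2 lines reached their highest value on replicate 4, and the groups overlapped between 11.10 and 11.75. The line-level difference was 1.09 ± 0.32, the largest of the fatty acid list, with a limma adjusted p of 0.197. A dimmer second Acss2 probe, detected on 9 arrays, gave 0.46, with MI7 at 5.78 below WTHER2-1 at 6.05. Acss2 rose by 1.64 ± 0.48 in MI6 relative to WTHER2-2 (limma adjusted p = 0.0131), with limma adjusted p of 0.0593 when BeadChip was a random block and 0.0530 without the WTHER2-2 arrays on BeadChip 3. Acly, at means of 13.25 ± 0.16 for MI6 and 13.41 ± 0.24 for MI7, against 14.00 ± 0.21 for WTHER2-1 and 13.42 ± 0.05 for WTHER2-2, was called in no pair.

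Fasn encodes fatty acid synthase and was read by a dim probe, detected on 8 of 8 d16HER2 arrays and 6 of 8 WT HER2 arrays. It read 6.65, 5.63, 6.15 and 6.44 on the MI6 arrays, 6.21, 5.88, 6.09 and 6.31 on the MI7 arrays, 6.46, 6.50, 6.93 and 5.96 on the WTHER2-1 arrays, and 6.48, 5.72, 5.65 and 5.03 on the WTHER2-2 arrays. All lines overlapped, and the line-level difference was 0.08 ± 0.32. The 95% interval, from 2 lines against 2, ran from -0.81 to 0.97, so it held differences of either sign. Elovl6, the elongase of saturated acyl chains, differed by -0.27 ± 0.18.

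Scd1 and Scd2 encode stearoyl-CoA desaturases, which put the first double bond into saturated acyl chains. Scd1 read 15.04, 14.77, 14.80 and 15.06 on the MI6 arrays and 14.99, 14.78, 14.76 and 14.97 on the MI7 arrays, against 15.41, 14.92, 15.33 and 15.19 on the WTHER2-1 arrays and 13.69, 13.61, 13.47 and 13.77 on the WTHER2-2 arrays. WTHER2-2 lay below every other array by more than the spread of any line. Scd1 was higher than in WTHER2-2 by 1.28 ± 0.11 in MI6, 1.24 ± 0.11 in MI7 and 1.58 ± 0.11 in WTHER2-1 (limma adjusted p = 6.16e-07, 9.37e-07 and 1.17e-07). The fold for WTHER2-1 over WTHER2-2 was 2.98.

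Scd2 was highest in MI6 instead. It read 11.24, 11.12, 11.11 and 11.46 on the MI6 arrays and 10.04, 10.06, 10.55 and 10.34 on the MI7 arrays, against 10.17, 9.90, 9.95 and 10.23 on the WTHER2-1 arrays and 11.01, 10.58, 10.29 and 10.73 on the WTHER2-2 arrays. No array of another line reached the MI6 arrays. Scd2 rose by 1.17 ± 0.16 in MI6 relative to WTHER2-1 (2.25-fold, limma adjusted p = 6.72e-05). Between the d16HER2 lines, MI6 minus MI7 was 0.99 ± 0.16 with a limma adjusted p of 0.00375, just under the fold threshold, and it was called under median scaling of the arrays. WTHER2-1 thus had the highest mean of the 4 lines for Scd1 and the lowest for Scd2.

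Fads1 and Fads2 encode the front-end desaturases that make long polyunsaturated fatty acids. Fads1 read 12.03, 11.82, 11.72 and 11.67 on the MI6 arrays and 12.57, 12.22, 12.61 and 12.37 on the MI7 arrays, against 12.74, 12.73, 11.93 and 12.85 on the WTHER2-1 arrays and 13.07, 13.11, 13.99 and 14.43 on the WTHER2-2 arrays. WTHER2-2 was the highest line on every array. Relative to it Fads1 fell by 1.84 ± 0.27 in MI6, by 1.21 ± 0.27 in MI7 and by 1.09 ± 0.27 in WTHER2-1 (limma adjusted p = 8.34e-05, 0.00252 and 0.00611). Without the WTHER2-2 arrays on BeadChip 4 the differences were -1.28, -0.65 and -0.53, and only the first was still called. Fads2 differed by 0.36 ± 0.31 between the transgenes and was called in no pair.

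**Figure D2:**
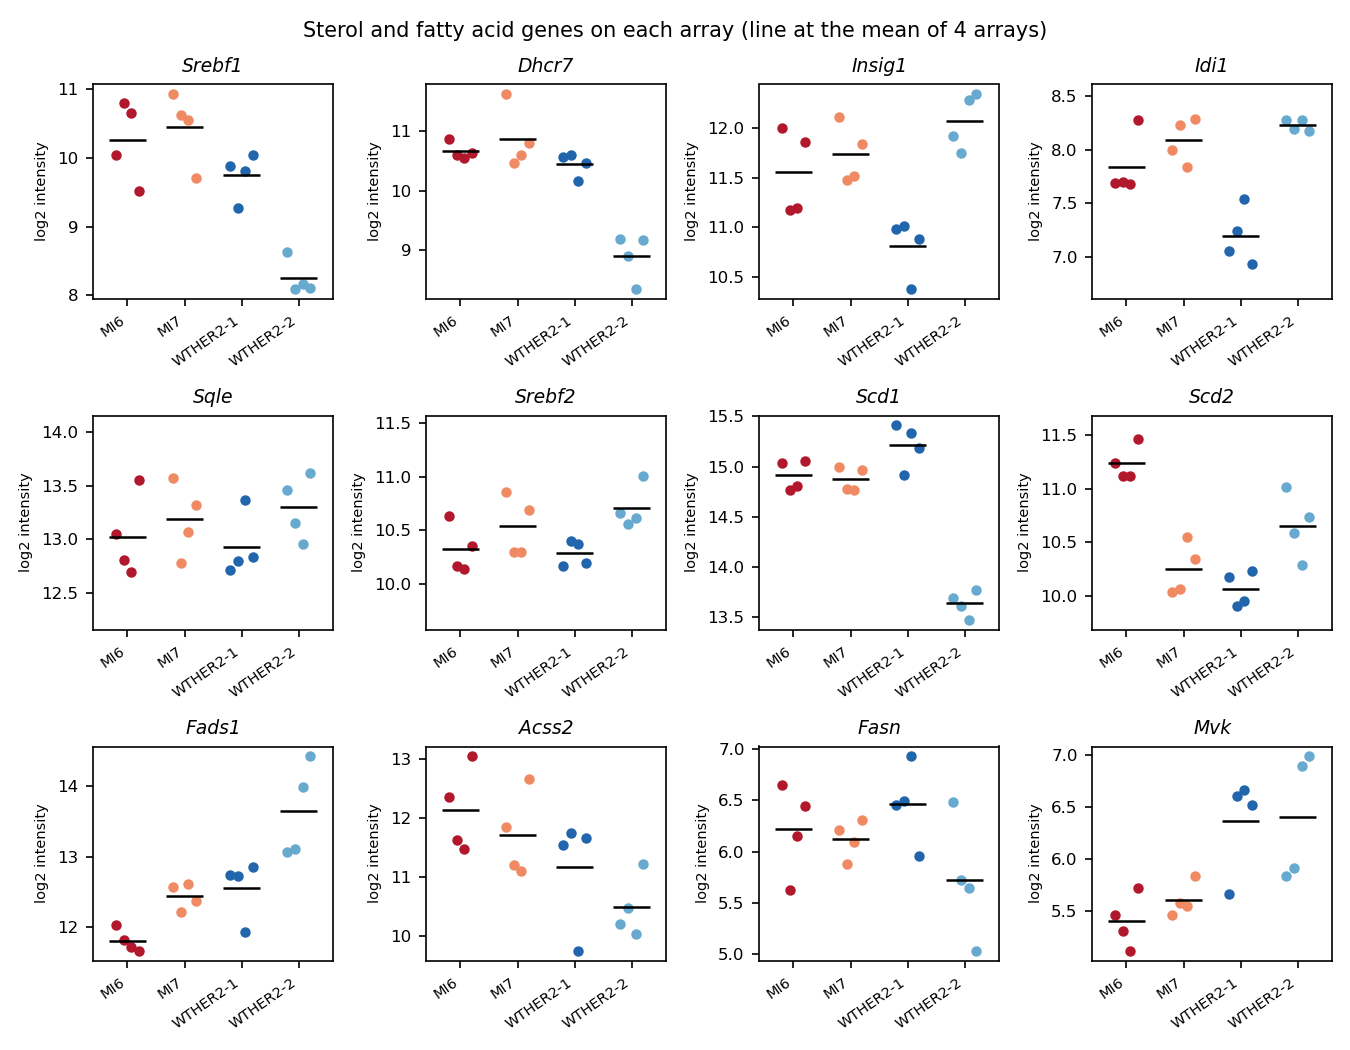
Normalized log2 intensity (y axis, own scale per gene) of 12 genes on each of the 16 arrays, by line (x axis), with a bar at the mean of the 4 arrays. WTHER2-2 stands below the other lines for Srebf1, Dhcr7 and Scd1 and above them for Fads1, WTHER2-1 stands below for Insig1 and Idi1, and MI6 stands above for Scd2.

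Counted over line pairs, most calls fell on pairs that hold WTHER2-2, where the counts lay near the shares of all genes. MI6 minus WTHER2-2 called 7 of 25 genes, against 19.9% of all genes. They were 4 sterol genes (with Mvk, detected on 1 of 4 MI6 arrays) and 3 fatty acid genes. MI7 minus WTHER2-2 called 4 of 25 (2 in each branch), against 20.1%. WTHER2-1 minus WTHER2-2 called 6 of 25, against 15.9%. They were 4 sterol genes (Idi1, Dhcr7, Insig1 and Srebf1) and 2 fatty acid genes (Scd1 and Fads1). MI6 minus WTHER2-1 called only Scd2, against 15.7%, and MI7 minus WTHER2-1 called 0 of 25, against 14.5%.

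MI6 minus MI7 also called 0 of 25, against 1.18%. Srebf1, Dhcr7, Scd1 and Fads1 were called in the same direction in all 3 pairs with WTHER2-2, which is 4 of 25 genes against 6.88% of all genes. These 3 pairs share the WTHER2-2 arrays, so they are not independent, and WTHER2-2 shared no BeadChip with the other lines. The same count was 0 of 25 for the 3 pairs with WTHER2-1, against 3.84% of all genes, 0 of 25 with MI6, against 0.504%, and 0 of 25 with MI7, against 0.317%. At least 1 pair was called for 10 of the 25 genes, against 34.5%.

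The WTHER2-2 arrays differed between their BeadChips. For 9 epithelial markers the BeadChip 4 arrays gave means of 8.41 and 6.47 and the BeadChip 3 arrays means of 11.52 and 11.41, against 11.71 to 12.00 on the d16HER2 arrays and 10.81 to 11.21 in WTHER2-1. For 8 fibroblast markers the means were 11.93 and 11.43 on the BeadChip 4 arrays, 8.51 and 8.58 on the BeadChip 3 arrays, 5.77 to 6.05 on the d16HER2 arrays and 7.36 to 8.29 in WTHER2-1. The WTHER2-1 mean mixed bright and undetected markers. Col6a1, Col6a2, Pdgfra and Fbln2 were detected on 4 of its arrays and Dcn on 3, but Col1a1 and Col1a2 on 1 each and Pdgfrb on 0. Fbln2, at 10.79 in WTHER2-1, lay between MI7 at 10.04 and MI6 at 11.03. Of 10 listed epithelial markers Krt19 was detected on 0 arrays, and of 11 listed fibroblast markers Lum was. In bulk RNA, fewer cells of a type and less RNA per cell cannot be told apart.

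Among the lipid genes, 4 of 25 were at least 2-fold higher on BeadChip 4 than on BeadChip 3, against 20.8% of all genes past 2-fold in either direction. Mvd differed by 1.35, Fads1 by 1.12, Mvk by 1.07 and Pmvk by 1.02. Scd1, at -0.03, and Srebf1, at -0.23, differed by less, and both genes were still called in all 3 pairs with WTHER2-2 without the arrays of either BeadChip. For WTHER2-1 minus WTHER2-2, Srebf1 gave 1.39 without the BeadChip 4 arrays and 1.62 without the BeadChip 3 arrays, and Scd1 gave 1.56 and 1.59. For Fads1 the part of the marker shift in the result was not tested. Adipocyte markers Plin1, Fabp4, Cidec and Retn, leukocyte markers Ptprc, Adgre1, Cd3e, Itgam and Lyz2, and endothelial markers Pecam1, Cdh5 and Emcn were detected on 0 arrays, and Adipoq on 1. Other markers of these lists were detected, with Lep, Pnpla2, Csf1r and Kdr on all 16 arrays, Tek on 9 and Lipe on 3.

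The sterol genes shared a pattern between arrays of the same line. Each array's deviation from the mean of its line was correlated with the mean deviation of the other sterol genes over the 16 arrays, as a description, since arrays of a line share their cells and some share a BeadChip. The correlation exceeded 0.5 for 10 of 17 sterol genes and 2 of 8 fatty acid genes (Scd1 at 0.66 and Acly at 0.62), and for 7.93% of the other 10699 genes. The median was 0.59 for sterol genes, 0.36 for fatty acid genes and 0.01 for other genes. Srebf2 at 0.87, Fdps at 0.86, Sqle at 0.83, Mvd at 0.80, Nsdhl at 0.79 and Cyp51 at 0.79 led the list. Srebf1 ran the other way, at -0.53.

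Within the 8 d16HER2 arrays the correlation was 0.98 for Insig1 and for Fdps, 0.97 for Cyp51 and for Scd1, and -0.63 for Srebf1, and it exceeded 0.5 for 13 of 17 sterol genes, 4 of 8 fatty acid genes and 24.5% of other genes. Within the 8 WT HER2 arrays it was -0.11 for Insig1 and 0.92 for Srebf2, and it exceeded 0.5 for 8 of 17 sterol genes, 1 of 8 fatty acid genes and 19.2% of other genes. In both d16HER2 lines replicates 1 and 4 were higher in sterol genes than replicates 2 and 3. The mean sterol deviation from the mean of the 4 lines was 0.23, -0.24, -0.30 and 0.26 on the MI6 arrays and 0.41, 0.04, -0.02 and 0.23 on the MI7 arrays. It was -0.21, -0.12, 0.06 and -0.20 on the WTHER2-1 arrays and -0.05, -0.17, -0.16 and 0.26 on the WTHER2-2 arrays, so the lines overlapped. Replicates 1 and 2 of each d16HER2 line were on BeadChip 1 and replicates 3 and 4 on BeadChip 2, so each BeadChip held a higher and a lower array of each line.

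**Figure D3:**
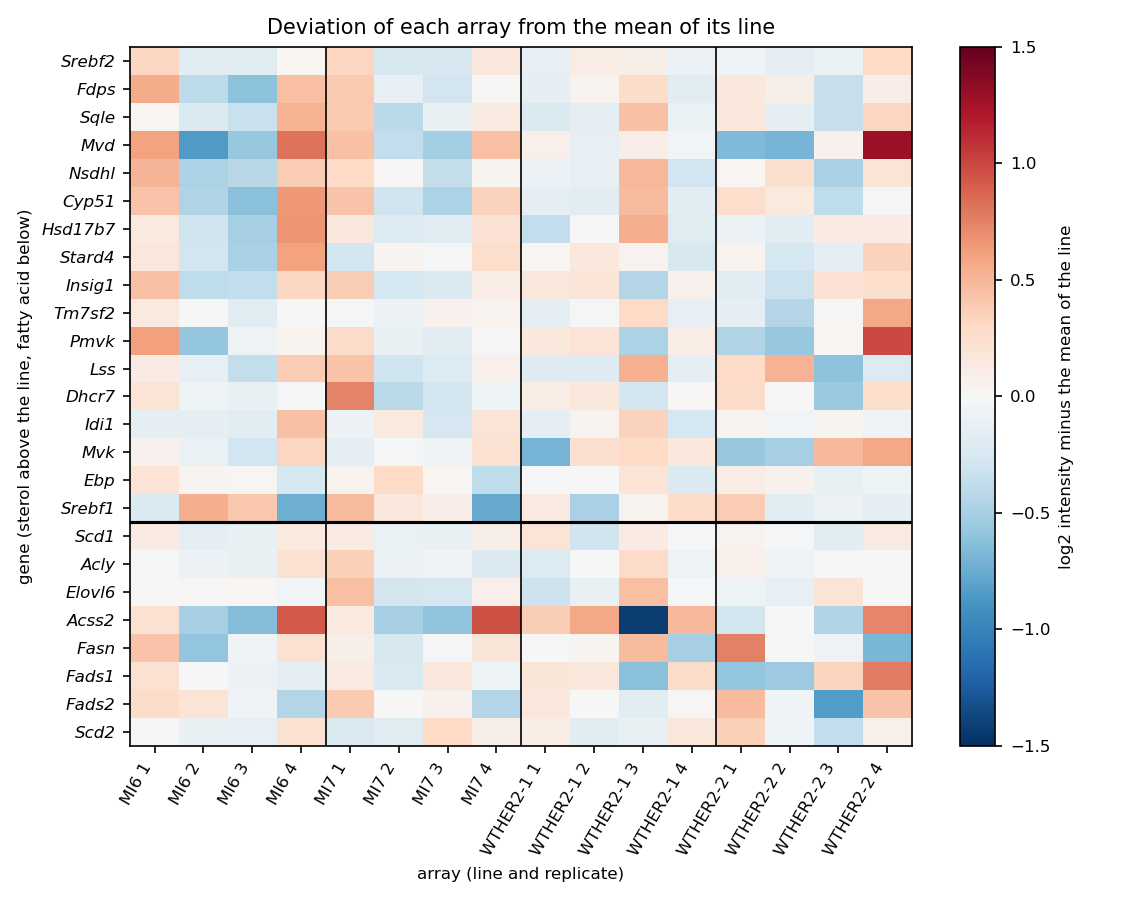
Deviation of each array from the mean of its line (log2, colour) for the 17 sterol genes above the heavy line and the 8 fatty acid genes below it, ordered by correlation with the other sterol genes, with arrays along the x axis. In MI6 and MI7 most sterol rows are red on arrays 1 and 4 and blue on arrays 2 and 3, and Srebf1 does not follow them.

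**Figure D4:**
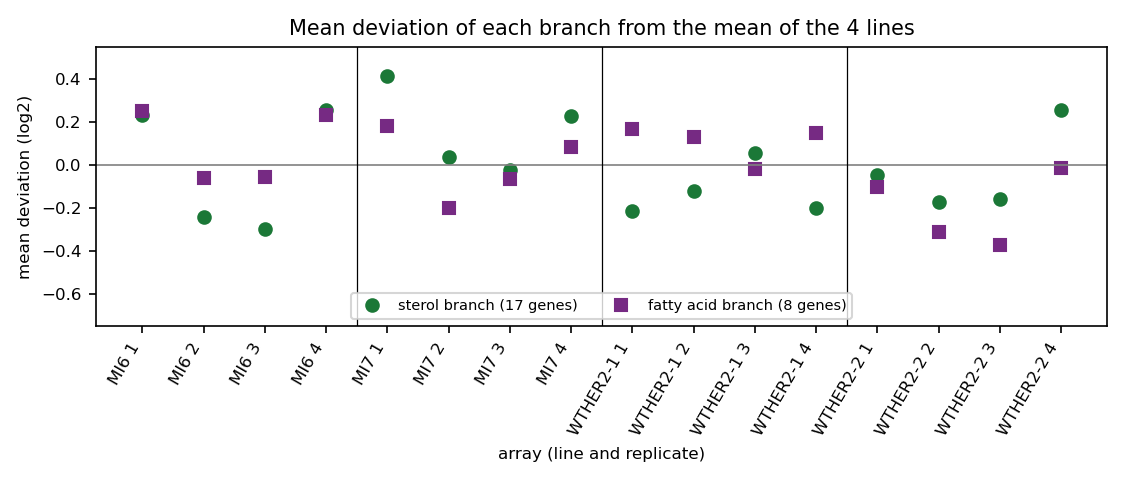
Mean deviation of the 17 sterol genes (circles) and the 8 fatty acid genes (squares) from the mean of the 4 lines (log2, y axis) on each array (x axis). Sterol values ran from -0.30 on an MI6 array to 0.41 on an MI7 array, so arrays of the same transgene differed by more than the line means.

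Other genes of the same pathways were counted from lists drawn up with the members. Of 23 further sterol pathway genes 15 were tested and 0 separated, with a median difference of -0.07. The largest differences were 0.63 ± 0.16 for Rdh11, a retinol dehydrogenase, and -0.59 ± 0.37 for Npc1, which exports cholesterol from lysosomes (limma adjusted p = 0.166 and 0.461). Other detected Npc1 probes gave -0.60 and 0.15, so the probes of this gene differed in sign. Of 9 genes of the oxysterol receptor LXR and of cholesterol efflux 5 were tested, and Abcg1, a cholesterol exporter, was separated, against 5.52% of all genes.

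Abcg1 read 4.67, 4.83, 4.66 and 4.75 on the MI6 arrays and 5.68, 5.16, 5.10 and 5.07 on the MI7 arrays, against 8.20, 6.48, 7.42 and 7.74 on the WTHER2-1 arrays and 7.87, 7.55, 6.25 and 6.04 on the WTHER2-2 arrays. It was lower on every d16HER2 array, where it was detected on 1 of 8, than on any WT HER2 array, where it was detected on 8 of 8. It passed the filter through the WT HER2 lines and was not well above background on any MI6 array, so its difference has no exact size and its call is not read as a test.

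Of 33 further fatty acid and lipid handling genes 26 were tested and 3 were separated, against 5.52% of all genes, with a median difference of 0.37, against 0.03 over all genes. In limma 16 were called in at least 1 line pair, against 34.5% of all genes. An unadjusted line-level p under 0.05 was found for 13, against 19.6%. Among the 13, Thrsp was detected on only 1 d16HER2 array and Acacb on only 2 WT HER2 arrays, so this count is not read as a test. Pnpla3, a lipid droplet hydrolase and SREBP-1c target, read 8.21, 8.56, 8.37 and 8.40 on the MI6 arrays and 8.74, 9.32, 9.56 and 8.64 on the MI7 arrays, against 6.89, 7.22, 5.46 and 7.13 on the WTHER2-1 arrays and 6.73, 4.89, 4.74 and 4.70 on the WTHER2-2 arrays. It was detected on 8 of 8 d16HER2 arrays and 4 of 8 WT HER2 arrays, 1 of them from WTHER2-2. Every d16HER2 array lay above every WT HER2 array, and the line-level difference was 2.75 ± 0.59 (limma adjusted p = 0.137). Since WTHER2-2 was mostly at background, that difference has no exact size.

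Mid1ip1, which promotes polymerization of acetyl-CoA carboxylase, ran from 9.99 to 10.99 on the d16HER2 arrays and from 11.40 to 12.93 on the WT HER2 arrays, with a line-level difference of -1.61 ± 0.25 (limma adjusted p = 0.0904). Lpl, lipoprotein lipase, ran from 5.01 to 6.91 on the d16HER2 arrays and from 5.78 to 10.73 on the WT HER2 arrays. One WTHER2-2 array, at 5.78 on BeadChip 4, lay among the d16HER2 arrays. The line-level difference of Lpl was -2.91 ± 0.47 (limma adjusted p = 0.0940). Lpl was detected on 5 of 8 d16HER2 arrays, 1 of them from MI6, and on 7 of 8 WT HER2 arrays. Its difference therefore has no exact size. The 4 separated genes lie outside the synthesis panel and, like it, passed no line-level test after adjustment.

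**Figure D5:**
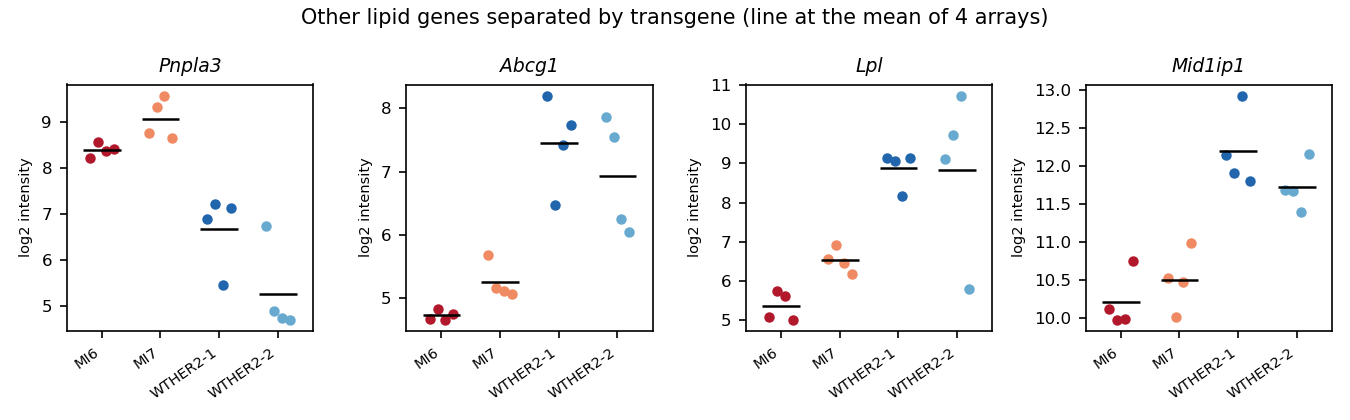
Normalized log2 intensity (y axis, own scale per gene) of Pnpla3, Abcg1, Lpl and Mid1ip1 on each array by line (x axis), with a bar at the mean of the 4 arrays. The d16HER2 arrays lie above the WT HER2 arrays for Pnpla3 and below them for Abcg1 and Mid1ip1, and 1 WTHER2-2 array of Lpl lies among the d16HER2 arrays.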

How the data were processed

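The authors deposited a raw average signal intensity and a detection p-value for each probe on each array, per the file headers. A table of normalized intensity, also deposited by the authors, shares 1 distribution over the arrays and was used as an alternative. BeadStudio is named, with no version, per the submitters' processing notes. With R 4.3.3, limma 3.58.1 and statmod 1.5.0 the raw intensities were corrected with normexp (negative controls inferred from the detection p, offset 16), quantile-normalized and put on the log2 scale, which the authors' deposited tables are not. Probes with a detection p under 0.05 on at least 4 of 16 arrays were kept (20152 of 45281). The brightest kept probe of each of 10724 genes was used. The probe annotation gave 34885 probes 1 symbol, 18 several and 10378 none. Median raw intensity ran from 136 to 149 in WTHER2-1 and from 83.5 to 105 in the other lines. Detection ran from 35.8% to 42.4% of probes, and WTHER2-2 replicate 4 was lowest in both measures. The number of arrays limits the precision. Array correlations within a line, across genes, ran from 0.852 to 0.991 in WTHER2-2 and from 0.958 to 0.997 in the others.

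Lines were compared in pairs in a limma fit to 16 arrays (called at an adjusted p under 0.05 where the log2 difference was also 1 or more in size) and by transgene in a limma fit to the 4 line means. An exact permutation test of 2 lines against 2 cannot go below a two-sided p of 0.333. Alternatives changed the background correction, normalization, filter, probe rule, variance prior, BeadChip block, arrays and lines. The fits were tested on simulated data. Promoter searches and figures used Python 3.11.15 and matplotlib 3.10.9. Promoters are those of RefSeq GRCm38.p6.

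The members and the gene lists were chosen with earlier results of these data known. Values on every array were given for the 2 members of each branch with the largest line-level differences and for Insig1, Srebf1, Srebf2, Sqle, Fasn, Scd1 and Scd2, and of each other pathway list the separated genes or else the 2 largest were named. Marker lists covered epithelial cells, fibroblasts, adipocytes, leukocytes and endothelium, of which 9 of 10, 8 of 11, 2 of 10, 1 of 8 and 2 of 5 genes were tested. In the same order 1, 3, 0, 0 and 0 of them were separated, against 5.52% of all genes, with median differences of 1.60, -2.59, 0.02, -0.12 and 0.07. The separated markers were Epcam, higher in d16HER2, and Col6a1, Col6a2 and Pdgfra, lower in d16HER2. Col6a2 was detected on 0 of 8 d16HER2 arrays and Pdgfra on 3, so both passed the filter through the WT HER2 lines. Col6a1 was detected on 4 of 8 d16HER2 arrays and on 0 from MI6, and Epcam on 5 of 8 WT HER2 arrays. The differences of the 3 fibroblast markers thus have no exact size, and their calls are not read as a test.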

Additional observations from a re-analysis of the deposited data

Results flagged for a closer look

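In 9 of 100 groups of 4 arrays (25 genes in 4 lines) 1 array stood apart from the other 3 by Dixon's test, where chance flags about 1 group in 20. WTHER2-1 replicate 3 did so for 5 genes. Acss2 read 9.75 there, against 11.54 to 11.75 on the other arrays of the line, Fads1 11.93 against 12.73 to 12.85, and Pmvk 7.92 against 8.52 to 8.61. On the same array Lss read 10.18 against 9.45 to 9.50, and Cyp51 11.81 against 11.17 to 11.20. Mvk read 5.67 on WTHER2-1 replicate 1, against 6.53 to 6.66 on the rest. Idi1 read 8.28 on MI6 replicate 4, against 7.68 to 7.70, Fdps 13.15 on WTHER2-2 replicate 3, against 13.59 to 13.65, and Srebf1 8.63 on WTHER2-2 replicate 1, against 8.09 to 8.16.

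For 6 genes the d16HER2 lines differed from WTHER2-1 and from WTHER2-2 by amounts that themselves differed, the test being that of WTHER2-1 minus WTHER2-2 in limma. These are the same 6 of 25 genes already called for that pair, against 15.9% of all genes. Srebf1 was 0.61 above WTHER2-1 and 2.11 above WTHER2-2, which differ by 1.51, and Dhcr7 0.32 and 1.87 above, which differ by 1.54. Scd1 was at -0.32 relative to WTHER2-1 and at 1.26 relative to WTHER2-2, a difference of 1.58, so its sign turned with the WT HER2 line. Insig1, at 0.83 and -0.43 (a difference of -1.25), and Idi1, at 0.77 and -0.27 (a difference of -1.04), also turned sign. Fads1 was at -0.44 and -1.52, a difference of -1.09.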

How the results depend on the processing

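Neither branch had a separated gene or one that passed the line-level test under any alternative that kept all 4 lines. Without WTHER2-1, 2 sterol and 2 fatty acid genes were separated higher and 1 fatty acid gene lower in d16HER2, and 3 and 3 passed the line-level test, beside 1620 separated genes and 2587 line-level passes among all 10724. Without WTHER2-2, 1 sterol gene passed the line-level test, with 1541 of all genes. In these fits the spread comes from the 2 d16HER2 lines alone, and the lone WT HER2 line is assumed to vary like them. The fatty acid median of 0.22 was -0.040 without MI6 and -0.25 without WTHER2-2 (0.14 to 0.32 without 1 array), and the sterol median of 0.11 was -0.19 without WTHER2-1 (0.01 to 0.24). Median scaling gave 1 fatty acid call for MI6 minus MI7 (0 to 1 without 1 array). It gave 1 in place of 2 for WTHER2-1 minus WTHER2-2 and 1 in place of 2 in all 3 pairs with WTHER2-2, as did leaving out the WTHER2-2 arrays on BeadChip 4 (1 to 2 without 1 array). The sterol counts were 3 to 4 for WTHER2-1 minus WTHER2-2 and 2 in all 3 pairs with WTHER2-2 without 1 array. The counts over all 3 pairs and of genes that vary together (10 to 12 without 1 array) were added after seeing the data.

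Small line-level differences changed sign. Under median scaling Sqle was 0.064 and Srebf2 0.044, and as a mean of probes Fdps was 0.42 and Sqle 0.039. Fasn was -0.11 without the WTHER2-2 arrays on BeadChip 4, and Pmvk -0.14 without those on BeadChip 3. Without MI6 Fdps was 0.057, Sqle 0.075, Srebf2 0.040 and Scd2 -0.11. Without WTHER2-1 Pmvk was -0.00044, Idi1 -0.27 and Insig1 -0.43. Without WTHER2-2 Fdps was 0.097, Sqle 0.18, Srebf2 0.15, Ebp -0.041, Fasn -0.29 and Scd1 -0.32. Without 1 array Sqle ran from -0.094 to 0.068, Fdps from -0.18 to 0.015 and Fasn from -0.035 to 0.21. The cause was not tested. Fads1 in WTHER2-1 minus WTHER2-2 was -0.88 without WTHER2-1 replicate 3, -0.97 without WTHER2-2 replicate 3 and -0.83 without WTHER2-2 replicate 4, under the fold threshold each time, and in MI7 minus WTHER2-2 it was -0.95 without WTHER2-2 replicate 4. Of the single-gene values under alternatives 1189 kept direction and call, 31 lost the call, 5 gained it and 29 changed sign. The differences by transgene among these values had no call to lose, since no gene was separated. All 31 lost calls were thus of line pairs. No paired analysis was possible because the labels give no replicate numbers and those used here follow accession order, which pairs no arrays. A BeadChip block over the 8 d16HER2 arrays called 0 genes of either branch. Calls over all genes were not counted for that fit, and without the block MI6 minus MI7 called 1.18% of all genes.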

Other observations

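Fatty acid oxidation genes, which act against synthesis, were counted as well. Of 13 listed 10 were tested and 0 were separated, against 5.52% of all genes, with a median difference of 0.16. In limma 0 of the 10 were called in any line pair, against 34.5% of all genes. An unadjusted line-level p under 0.05 was found for 3, of which Ehhadh was mostly at background in WT HER2, against 19.6% of all genes. Cpt2, the inner mitochondrial carnitine palmitoyltransferase, ran from 10.09 to 10.68 on the d16HER2 arrays and from 11.02 to 11.60 on the WT HER2 arrays. The groups did not overlap, and the difference was -0.78 ± 0.19 (limma adjusted p = 0.157). All 3 Cpt2 probes were lower in d16HER2, with differences of -0.78, -0.83 and -0.89. Ehhadh, a peroxisomal oxidation enzyme, was detected on 7 of 8 d16HER2 arrays and 1 of 8 WT HER2 arrays, so it passed the filter through the d16HER2 lines. Its difference therefore has no exact size and is not read as a test.

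Nr1h3, which encodes the oxysterol receptor LXR alpha, averaged 7.84 on the d16HER2 line means and 6.66 on the WT HER2 line means, a difference of 1.18 ± 0.53 (limma adjusted p = 0.333). Tmem97, a sterol-regulated membrane protein gene, differed by -0.50 ± 0.17 (limma adjusted p = 0.231). Nr1h3 and Tmem97 were chosen after their values were seen.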
